A study of Mus musculus with 18 samples.

Results

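Transcript levels of 6 genes of triglyceride uptake were compared between skeletal muscles of fasted and fed mice with and without PGC-1β in muscle. They are the genes of lipoprotein lipase (Lpl), of the proteins that mature, carry and inhibit it (Lmf1, Gpihbp1 and Angptl4) and of the lipoprotein receptors Vldlr and Lrp1. They were picked by gene symbol for their known roles, with earlier results of these data known, and make up 6 of the 46983 genes of the deposited table. Poly(A) RNA of muscle from adult male C57Bl6/J mice of 10 weeks or older was sequenced as single reads in 18 libraries, labelled as biological replicates. There were 5 MKO fasted, 4 WT fasted, 5 MKO fed and 4 WT fed libraries. MKO (muscle knockout) mice were homozygous for a floxed Ppargc1b allele, the gene of PGC-1β, and carried Cre under the human skeletal actin (HSA) promoter, which removes exons 4 to 6 in skeletal muscle fibers, whereas WT mice carried the same floxed allele without Cre. Fasted mice were without food for 24 h and fed mice ate ad libitum, and the labels name the muscle as quadriceps whereas the paper names it as Gastrocnemius.

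Lipoprotein lipase (LPL) releases fatty acids from the triglycerides of circulating lipoproteins at the surface of capillaries. The muscle fiber makes the enzyme, lipase maturation factor 1 helps it fold in the endoplasmic reticulum, and GPIHBP1 of the endothelial cell carries it across the vessel wall and holds it there. ANGPTL4, a secreted protein induced by fatty acids through PPAR nuclear receptors, inactivates the enzyme, while VLDLR and LRP1, large receptors of the LDL receptor family, bind and take up lipoprotein particles and LPL itself.

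In the GRCm38 annotation (GENCODE M21), the exons of the 6 genes did not overlap those of another gene. Lpl (ENSMUSG00000015568) lies on the plus strand at chr8:68880491-68907448, Lmf1 (ENSMUSG00000002279) on the plus strand at chr17:25579085-25662826 and Gpihbp1 (ENSMUSG00000022579) on the plus strand at chr15:75596628-75599481. Angptl4 (ENSMUSG00000002289) lies on the minus strand at chr17:33773750-33781830, Vldlr (ENSMUSG00000024924) on the plus strand at chr19:27216484-27254231 and Lrp1 (ENSMUSG00000040249) on the minus strand at chr10:127538161-127621148. RefSeq promoter windows (GRCm38.p6) were matched for 3 of the 6 genes, Vldlr, Lrp1 and Lmf1. The 250 bases before the start site are shown for the receptors Vldlr and Lrp1. Vldlr was called higher with fasting in both genotypes and Lrp1 in neither, and the difference between these genes was not tested. The Vldlr window is chr19:27216234-27216483 on the plus strand and the Lrp1 window is chr10:127621149-127621398 on the minus strand, both written 5′ to 3′ with motif matches in capitals.
Vldlr: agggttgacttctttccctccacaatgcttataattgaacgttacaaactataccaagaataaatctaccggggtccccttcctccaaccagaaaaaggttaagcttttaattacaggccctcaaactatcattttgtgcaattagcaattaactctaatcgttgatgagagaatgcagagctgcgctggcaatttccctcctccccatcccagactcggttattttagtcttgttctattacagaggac
Lrp1: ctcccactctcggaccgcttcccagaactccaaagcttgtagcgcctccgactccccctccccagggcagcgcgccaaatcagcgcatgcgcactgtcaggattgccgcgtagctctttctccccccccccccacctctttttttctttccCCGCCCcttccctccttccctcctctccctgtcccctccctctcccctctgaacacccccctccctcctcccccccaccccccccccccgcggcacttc
Motifs were searched on both strands, and each share is that of 32851 RefSeq windows of the same length. The TATA box, searched as TATAAA, occurred in 12.4% of all windows and the CCAAT box in 33.8%. The GC box, whose letters are GGGCGG, occurred in 32.7%. The core element of nuclear receptors, AGGTCA, occurred in 14%, the FoxO site, searched as GTAAACA, in 3.17%, and the E-box, searched as CACGTG, in 6.02%. The Lrp1 window held 1 GC box, read on the opposite strand, beginning 99 bases before the start. The Vldlr window shown held none of the 6 motifs and had a GC content of 41.6%, against 67.2% in the Lrp1 window and 66.4% in the window of a downstream Vldlr start. That start, at position 27217020, had a CCAAT box and a GC box in its window, which did not overlap each other. These matches describe the letters of the windows only.

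The deposited values are TPM (transcript abundance as a share of each library), which are scaled for transcript length and give no read counts, so read depth and counting error are unknown. The libraries held at least 24459 TPM of 6 muscle fiber genes (Acta1, Ckm, Myh4, Myh1, Tnnt3 and Des). Between 10729 and 11958 genes reached 0.5 TPM in a library. A gene was tested if 4 or more libraries reached 0.5 TPM, which left 12111 genes, all 6 among them, and these were tested two-sided with limma on log2(TPM + 0.1). Calls were made at a Benjamini-Hochberg adjusted p under 0.05 over all 12111 genes, and log2 changes below are on this scale. Transcripts of the mitochondrial genome took 61.5% to 67.9% of the TPM in MKO fasted, 70.8% to 81.3% in WT fasted, 67.3% to 70.4% in MKO fed and 74.3% to 74.95% in WT fed libraries. The log2 level of the median gene was higher in MKO, by 0.31 against WT fasted and by 0.25 against WT fed muscle, so each genotype comparison is also given with the libraries brought to a common median log2 value (median scaling). Ppargc1b was measured at 0.422 to 1.11 TPM in MKO fasted, 0.726 to 1.47 in WT fasted, 1.76 to 2.35 in MKO fed and 1.45 to 2.05 in WT fed libraries; a gene-level TPM does not measure the 3 deleted exons. WT fasted replicate 4 stood apart from the other WT fasted libraries, with the highest mitochondrial share and the highest sum of slow fiber transcripts. Changes of the 6 genes that rest on it are given with and without it. Slopes on slow fiber transcripts and correlations were computed over all 18 libraries only.

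Fasting raised the transcripts of the enzyme, of its carrier, of its inhibitor and of Vldlr in both genotypes. The 4 genes Lpl, Gpihbp1, Angptl4 and Vldlr were called higher in MKO fasted than in MKO fed muscle, where 18.1% of all tested genes were called higher, and the same 4 were called higher in WT fasted than in WT fed muscle, where 15.3% were. After median scaling all 4 were again called in both genotypes, where the shares of all genes called higher were 20.2% in MKO and 19.9% in WT. Lmf1 and Lrp1 were not called in either. The comparisons in MKO and in WT use different libraries.

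**Figure D1:**
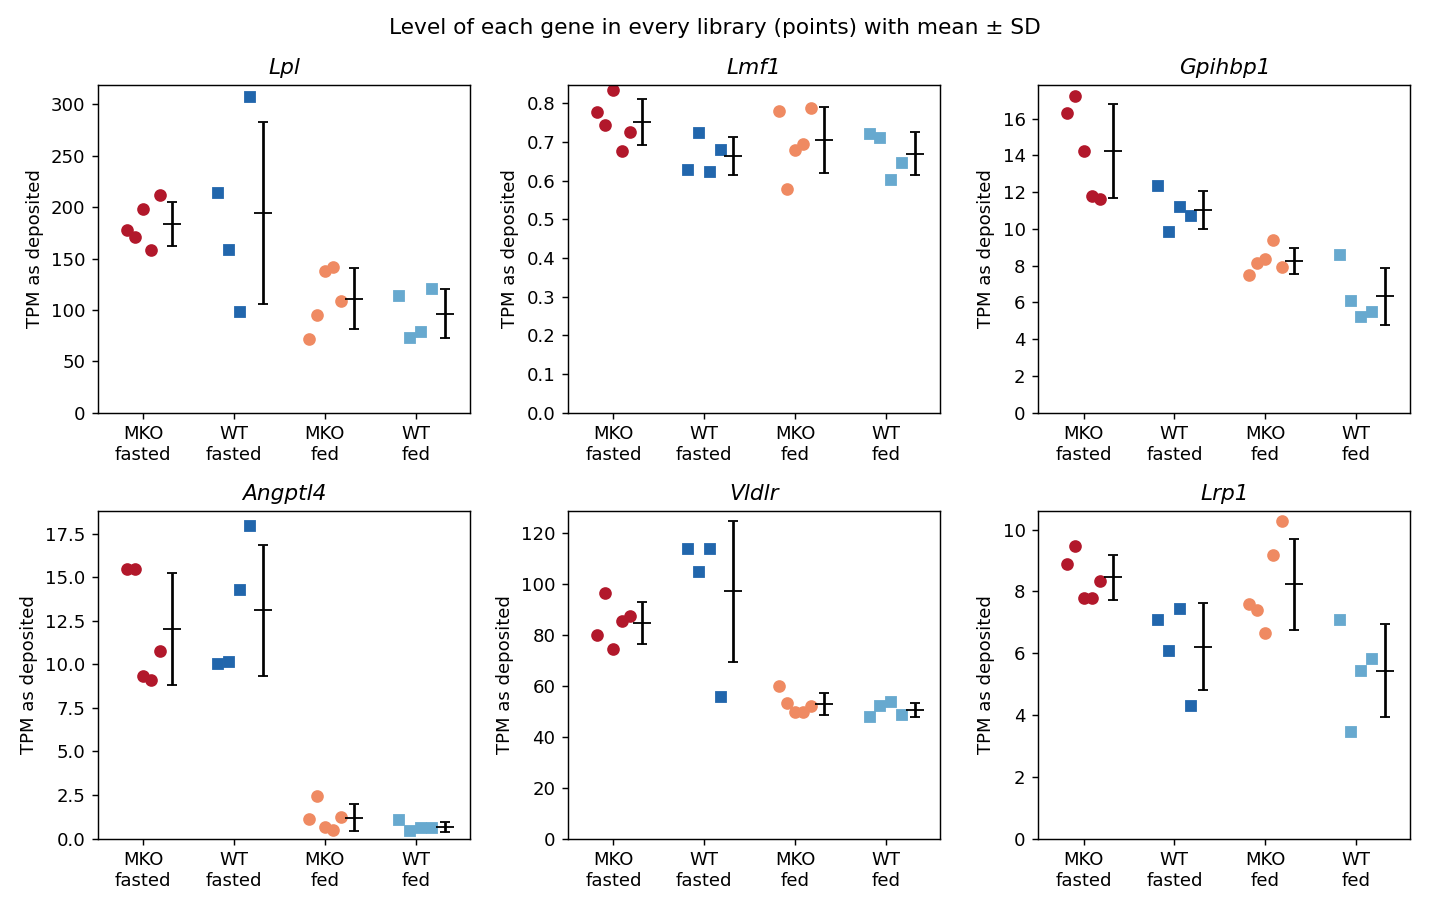
TPM as deposited of each gene (vertical axes, linear from 0) in the 18 libraries, shown as points by group with the mean and SD at the right of each group. Angptl4 lay between 9.09 and 17.9 TPM in all fasted libraries and at 2.46 TPM or lower in all fed libraries, and a single WT fasted library lay low for Vldlr at 55.7 TPM.

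**Figure D2:**
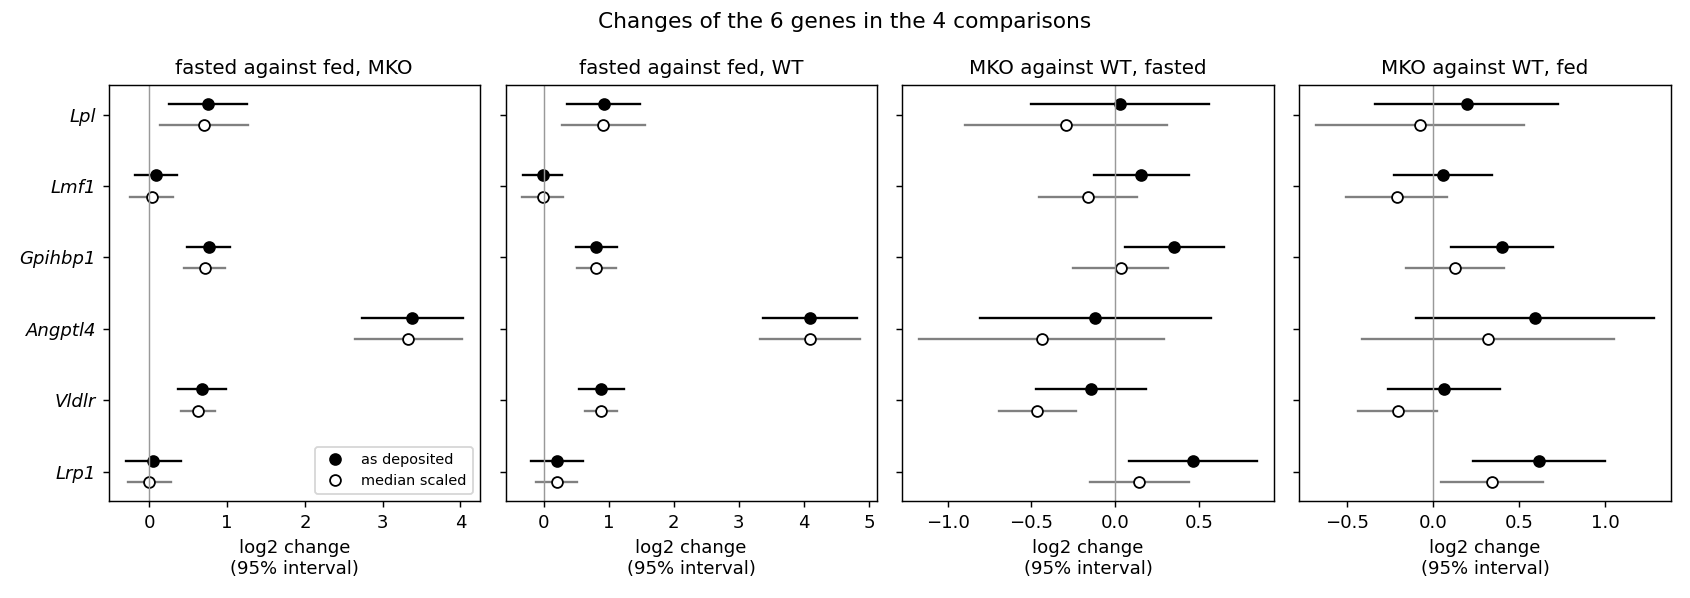
Log2 changes of the 6 genes in 4 comparisons (horizontal axes, with 95% intervals from limma), as deposited (filled) and after median scaling (open). The fasting changes were nearly the same on both scales, whereas every genotype change moved downward with median scaling.

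Lpl was the most abundant of the 6 transcripts. It had 178, 171, 198, 158 and 212 TPM in MKO fasted muscles, against 71.8, 95.5, 138, 142 and 108 TPM in MKO fed muscles. The MKO fasted libraries all lay above the MKO fed ones, and the change was 0.76 ± 0.24 on the log2 scale (SE, 1.69-fold, limma adjusted p = 0.0193). Leaving out MKO fed replicate 1, the library with the lowest level, gave 0.61 and ended the call (adjusted p = 0.0610), as did TPM recomputed without mitochondrial genes (0.64, adjusted p = 0.0973).

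In WT, Lpl had 213, 158, 98.5 and 307 TPM in fasted muscles, against 114, 73.2, 78.3 and 120 TPM in fed muscles. These groups overlapped through WT fasted replicate 3 (98.5 TPM), and the WT fasted group spread widest, with an SD of 88.7 TPM around a mean of 194 TPM, against 21.3 TPM around 183 TPM in MKO fasted muscle. The change was 0.93 ± 0.27 (SE, 1.90-fold, limma adjusted p = 0.0108). It remained called without WT fasted replicate 4 (0.66, adjusted p = 0.0389) and without replicate 3 (1.21, adjusted p = 0.000738). Median scaling without replicate 4 gave 0.55, which was not called (adjusted p = 0.0651).

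Between genotypes, Lpl differed by less than its spread in both feeding states. MKO was 0.03 ± 0.25 higher than WT in fasted muscle (limma adjusted p = 0.933, 95% interval −0.50 to 0.56) and 0.20 ± 0.25 higher in fed muscle (adjusted p = 0.545, interval −0.33 to 0.73). After median scaling both differences were negative, −0.29 in fasted and −0.07 in fed muscle, and neither was called. Without WT fasted replicate 4 the fasted difference was 0.29 as deposited (adjusted p = 0.387) and 0.078 after median scaling (adjusted p = 0.891), so its sign after scaling rests on that library.

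Within a group, the libraries with the most slow fiber transcripts also had the most Lpl, though the orders were not the same in every group. The sum of 6 slow fiber genes (Myh7, Tnnt1, Tnni1, Tnnc1, Myl2 and Myl3, which encode contractile proteins of slow fibers) was 509, 282, 121 and 49.0 TPM in WT fasted replicates 4, 1, 2 and 3, and Lpl had 307, 213, 158 and 98.5 TPM in the same order. The order by Lpl was thus the order by slow fiber transcripts in this group. In WT fed muscle the libraries with slow fiber sums of 282 and 277 TPM had 120 and 114 TPM of Lpl, and those with 123 and 120.2 TPM had 73.2 and 78.3 TPM. MKO fed replicates 4 and 3 were the highest by both measures (412 and 263 TPM slow, 142 and 138 TPM Lpl), and replicate 1 was the lowest by both (132 and 71.8 TPM). In MKO fasted muscle the highest and the lowest library were also the same by both measures, replicate 5 (317 and 212 TPM) and replicate 4 (81.7 and 158 TPM).

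A fit with the mean log2 level of the 6 slow fiber genes as a covariate, added after the data were seen, gave Lpl a slope of 0.40 ± 0.05 (SE) per log2 unit. The median slope of all genes was −0.03, and that of Lpl lay at percentile 99.2 of all tested genes. In this fit the SE of the Lpl fasting change fell to 0.12 in MKO and 0.13 in WT. The change was 0.81 in MKO (limma adjusted p = 3.47e-05) and 1.01 in WT (adjusted p = 9.76e-06), where 18.5% and 15.5% of all genes were called higher in this fit. Of the slow fiber genes themselves, 0 of 6 were called between fasted and fed muscle in either genotype by limma. Among all genes, 33.8% were called in MKO and 35.9% in WT in either direction. At an unadjusted limma p under 0.05, where all genes were not counted, 0 of the 6 slow fiber genes passed. Their median log2 change was −0.16 in MKO and −0.25 in WT, and their sum spread widely (SD 204 TPM around 240 TPM in WT fasted muscle). These counts therefore do not show that slow fiber transcripts were unchanged. The part of fiber type in the Lpl values beyond this fit was not tested.

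**Figure D3:**
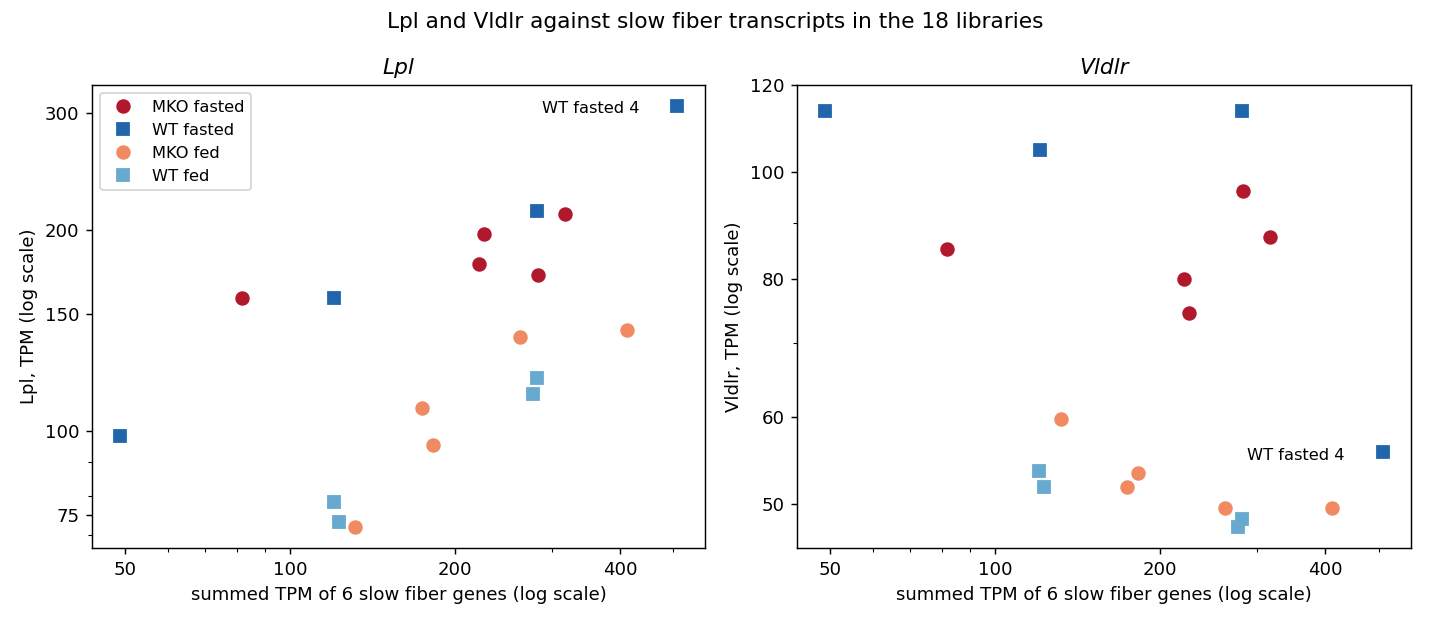
TPM of Lpl (left) and Vldlr (right) against the summed TPM of 6 slow fiber genes (all axes logarithmic), 1 point per library and colored by group. The order by Lpl equalled the order by slow fiber transcripts in WT fasted muscle and held for the highest and the lowest library in both MKO groups, and WT fasted replicate 4, at 509 TPM of slow fiber transcripts, had the highest Lpl (307 TPM) and the lowest fasted Vldlr (55.7 TPM).

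LPL is also made by adipocytes and macrophages, and muscle taken whole holds some of both. In bulk tissue, fewer cells of a type and less RNA per cell cannot be told apart. The 6 adipocyte genes (Adipoq, Plin1, Lep, Cfd, Cidec and Retn) summed to 17.6 to 180.1 TPM in MKO fasted, 12.7 to 85.0 in WT fasted, 52.2 to 147.4 in MKO fed and 47.8 to 86.6 in WT fed libraries. Of these 6 genes, 0 were called higher with fasting in either genotype, while 1 fell in MKO (Plin1) and 2 fell in WT (Plin1 and Retn), where 15.8% and 20.7% of all genes were called lower. WT fasted replicate 4, the library with the most Lpl, had the lowest adipocyte sum of all 18. The 5 macrophage genes measured (Cd68, Adgre1, Csf1r, Mrc1 and Cd163) summed to 18.6 to 24.6 TPM in MKO fasted, 13.5 to 19.8 in WT fasted, 17.8 to 36.0 in MKO fed and 8.38 to 19.5 in WT fed libraries. Their part in the Lpl values was not tested.

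Lmf1, the maturation factor that LPL needs to fold, was the least abundant of the 6 and was not called in any comparison. It averaged 0.751 ± 0.059 TPM in MKO fasted (SD, n = 5), 0.663 ± 0.048 in WT fasted (n = 4), 0.705 ± 0.085 in MKO fed (n = 5) and 0.670 ± 0.056 in WT fed muscle (n = 4). All 18 libraries lay between 0.579 and 0.835 TPM, and no neighbours in the order of these group means differed beyond their spread. The fasting change was 0.08 ± 0.13 in MKO (SE, limma adjusted p = 0.650) and −0.01 ± 0.14 in WT (adjusted p = 0.961). The 95% intervals of Lmf1, −0.18 to 0.35 in MKO and −0.31 to 0.29 in WT, span 0. The interval of Lpl overlapped that of Lmf1 in MKO (0.26 to 1.26) and lay above it in WT (0.37 to 1.48). The difference between the genes was not tested.

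Gpihbp1, the endothelial carrier of LPL, rose with fasting in both genotypes. It had 16.3, 17.2, 14.2, 11.8 and 11.6 TPM in MKO fasted muscles, against 7.48, 8.15, 8.34, 9.38 and 7.94 TPM in MKO fed muscles. In WT it had 12.3, 9.84, 11.2 and 10.7 TPM in fasted muscles, against 8.58, 6.08, 5.204 and 5.49 TPM in fed muscles. Every fasted library lay above every fed library of its genotype. The changes were 0.76 ± 0.13 in MKO (SE, 1.70-fold, limma adjusted p = 0.000239) and 0.81 ± 0.15 in WT (1.75-fold, adjusted p = 0.000348).

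For comparison, 10 other endothelial genes were counted. Of these 10 endothelial genes, 1 was called higher and 3 lower in MKO fasted against MKO fed muscle, and 3 were higher and 2 lower in WT (all genes 18.1% and 15.8% in MKO, 15.3% and 20.7% in WT), with medians of −0.10 and 0.05 against 0.01 and −0.06 for all genes. Kdr, the main VEGF receptor of endothelium, fell by 1.04 on the log2 scale in MKO and by 0.73 in WT, whereas Cldn5, a tight junction protein, rose by 1.27 in WT. The difference between log2 Gpihbp1 and the mean log2 of the 10 genes within each library, which does not depend on library scaling, averaged 0.87 ± 0.14 in MKO fasted (SD, n = 5), 0.64 ± 0.12 in WT fasted (n = 4), 0.04 ± 0.14 in MKO fed (n = 5) and −0.07 ± 0.18 in WT fed muscle (n = 4). It was 0.84 higher with fasting in MKO (p = 0.00794 by exact permutation, two-sided, 0.0317 adjusted over 4 comparisons), and no smaller p can come from 5 libraries against 5. In WT it was 0.71 higher (exact permutation p = 0.0286, the smallest that 4 against 4 allow, adjusted 0.0571), which did not pass the threshold after adjustment over the 4 comparisons.

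**Figure D4:**
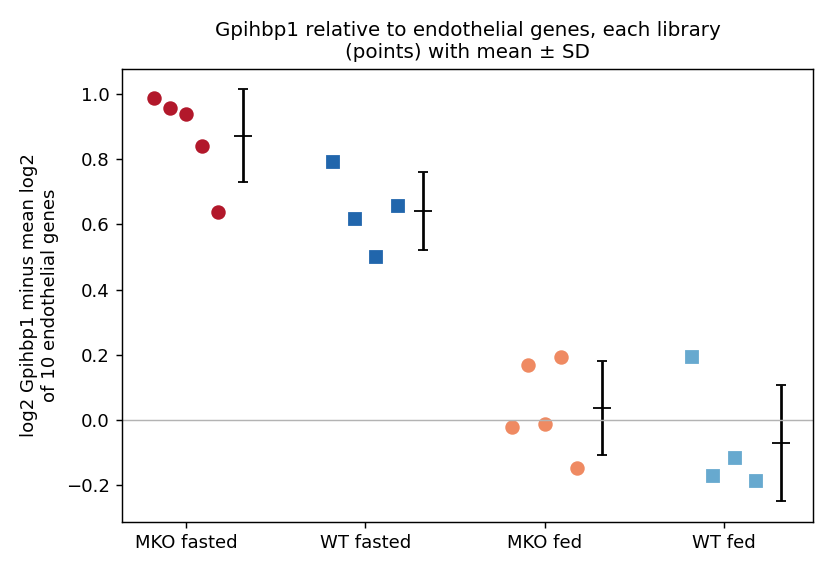
Log2 Gpihbp1 minus the mean log2 of 10 endothelial genes (vertical axis) in each library, by group, with mean and SD. All 9 fasted libraries, between 0.50 and 0.99, lay above all 9 fed libraries, between −0.19 and 0.19.

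Between genotypes, Gpihbp1 did not pass the test. The differences from WT were 0.35 ± 0.14 in fasted muscle (SE, limma adjusted p = 0.0538) and 0.40 ± 0.14 in fed muscle (adjusted p = 0.0751), and 0.03 and 0.13 after median scaling (adjusted p = 0.924 and 0.769). Relative to the 10 endothelial genes, the difference was 0.23 in fasted muscle (exact permutation p = 0.0476, adjusted 0.0635, n = 5 and 4) and 0.11 in fed muscle (exact permutation p = 0.317). The sum of the 10 genes was 82.4 to 110.1 TPM in MKO fasted, 79.7 to 99.99 in WT fasted, 84.4 to 101.3 in MKO fed and 64.5 to 85.2 in WT fed libraries.

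Angptl4, the secreted inhibitor of LPL, had by far the largest fasting change of the 6 genes. It had 15.5, 15.4, 9.34, 9.09 and 10.8 TPM in MKO fasted muscles, against 1.12, 2.46, 0.659, 0.475 and 1.26 TPM in MKO fed muscles. In WT it had 10.03, 10.1, 14.2 and 17.9 TPM in fasted muscles, against 1.08, 0.452, 0.588 and 0.605 TPM in fed muscles. The lowest fasted library (9.09 TPM) lay well above the highest fed library (2.46 TPM). The log2 changes were 3.38 ± 0.31 in MKO (SE, 10.4-fold, limma adjusted p = 1.24e-07) and 4.09 ± 0.35 in WT (17.1-fold, adjusted p = 5.17e-08). They lay at percentiles 99.92 and 99.96 of the changes of all genes. The 0.1 TPM added before taking logs lowers these folds, because the fed levels are low.

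The fasting change was 0.71 ± 0.47 smaller in MKO than in WT (SE), which the interaction term did not call (limma adjusted p = 0.702, 95% interval −1.68 to 0.26). Between genotypes Angptl4 differed by −0.12 ± 0.33 in fasted muscle (adjusted p = 0.785, and 0.047 without WT fasted replicate 4) and 0.59 ± 0.33 in fed muscle (adjusted p = 0.185). The MKO fed libraries spread from 0.475 to 2.46 TPM and overlapped the WT fed libraries.

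There was less Lpl transcript per Angptl4 transcript in fasted muscle, a ratio given as a description. There were 16.2 ± 4.6 TPM of Lpl per TPM of Angptl4 in MKO fasted (SD, range 11.1 to 21.2) and 15.2 ± 6.0 in WT fasted muscle (6.92 to 21.3). In fed muscle the ratio was 139 ± 111 in MKO (38.9 to 299) and 150 ± 40 in WT (105 to 199). Fasted and fed libraries did not overlap in either genotype, and the genotypes overlapped in both states. The ratio of Gpihbp1 to Lpl showed no such shift, with 0.079 ± 0.018 in MKO fasted, 0.067 ± 0.033 in WT fasted, 0.078 ± 0.017 in MKO fed and 0.068 ± 0.016 in WT fed muscle (SD).

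Vldlr, the receptor that binds triglyceride-rich particles in muscle, heart and fat, rose with fasting in both genotypes. It had 79.99, 96.2, 74.5, 85.2 and 87.3 TPM in MKO fasted muscles, against 59.7, 53.3, 49.5, 49.6 and 51.9 TPM in MKO fed muscles. In WT it had 114, 105, 114 and 55.7 TPM in fasted muscles, against 47.6, 51.8, 53.6 and 48.4 TPM in fed muscles. Fasted and fed libraries did not overlap, although WT fasted replicate 4 lay close to the fed levels. The changes were 0.68 ± 0.15 in MKO (SE, 1.60-fold, limma adjusted p = 0.00159) and 0.89 ± 0.16 in WT (1.85-fold, adjusted p = 0.000356), or 1.13 in WT without replicate 4 (adjusted p = 2.02e-08). The slope of Vldlr on the slow fiber transcripts was −0.15 ± 0.06 (SE), at percentile 7.08 of all genes, opposite in sign to that of Lpl.

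The fasted level of Vldlr was lower in MKO than in WT muscle on some scales only. As deposited, MKO averaged 84.6 ± 8.2 TPM (SD, n = 5) and WT 96.9 ± 27.8 TPM (n = 4), a log2 difference of −0.14 ± 0.16 (SE, limma adjusted p = 0.462). After median scaling it was −0.46 ± 0.11 (adjusted p = 0.0202), where 2.54% of all genes were called lower. Without WT fasted replicate 4 it was −0.39 as deposited (adjusted p = 0.00372, 1.03% of genes called lower) and −0.60 after median scaling (adjusted p = 0.00071, 2.98% called lower). All 5 MKO fasted libraries then lay below the other 3 WT fasted libraries (105 to 114 TPM). In fed muscle MKO and WT overlapped, with 52.8 ± 4.2 TPM in MKO and 50.4 ± 2.8 TPM in WT (SD) and a log2 difference of 0.07 ± 0.16 as deposited (SE, adjusted p = 0.746) and −0.21 ± 0.11 after median scaling (adjusted p = 0.474). The interaction was −0.21 ± 0.22 as deposited (adjusted p = 0.839) and −0.26 ± 0.16 after median scaling (adjusted p = 0.539). Over all settings run, those without WT fasted replicate 4 among them, it ranged from −0.457 to −0.114 (limma adjusted p from 0.118 to 0.917). A smaller rise in MKO was thus not shown.

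Lrp1, a broad scavenger and signaling receptor of many cell types, did not pass the test with fasting. It had 8.88, 9.48, 7.80, 7.79 and 8.34 TPM in MKO fasted muscles, against 7.60, 7.40, 6.65, 9.18 and 10.3 TPM in MKO fed muscles. In WT it had 7.07, 6.08, 7.43 and 4.28 TPM in fasted muscles, against 7.07, 3.44, 5.41 and 5.81 TPM in fed muscles. The groups overlapped in both genotypes, with changes of 0.05 ± 0.17 in MKO (SE, limma adjusted p = 0.839, and −0.00021 after median scaling) and 0.20 ± 0.19 in WT (adjusted p = 0.431).

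Lrp1 was the single gene of the 6 called between genotypes as deposited. It was 0.47 ± 0.18 higher in MKO fasted than in WT fasted muscle (SE, 1.38-fold, limma adjusted p = 0.0493), and all 5 MKO libraries lay above all 4 WT libraries. Of all genes, 38.9% were called higher in this comparison, and the median gene was 0.31 higher. After median scaling the difference was 0.14 ± 0.14 and not called (adjusted p = 0.605), and without WT fasted replicate 4 it was 0.30 as deposited (adjusted p = 0.218). Leaving out any of 12 libraries singly ended the call, with adjusted p values over all leave-outs between 0.0246 and 0.218. In fed muscle 4 of 5 MKO libraries lay above every WT library, and the difference was 0.62 ± 0.18 (adjusted p = 0.0522), or 0.34 ± 0.14 after median scaling (adjusted p = 0.310).

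The balance of the receptors differed between the genotypes in fasted muscle. There were 10.03 ± 0.76 TPM of Vldlr per TPM of Lrp1 in MKO fasted muscle (SD, range 9.01 to 10.9) and 15.4 ± 1.8 in WT fasted muscle (13.02 to 17.2), and these ranges did not overlap. WT fasted replicate 4, low in both receptors, had the lowest WT fasted ratio (13.02), and the other 3 WT fasted libraries lay between 15.3 and 17.2. In fed muscle the ratio was 6.59 ± 1.28 in MKO (5.05 to 7.86) and 10.01 ± 3.61 in WT (6.74 to 15.1), and the ranges overlapped. The ratio was chosen after the levels were seen and is given as a description. Whether its genotype difference changed with fasting was not tested.

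In fed muscle, limma called 0 of the 6 genes between MKO and WT, where 5.05% of all genes were called as deposited and 1.1% after median scaling. At an unadjusted limma p under 0.05, 2 (Gpihbp1 and Lrp1) passed as deposited and 1 (Lrp1) after median scaling. All genes were not counted at that threshold, so these 2 counts have no share to be set against. By p as deposited, Gpihbp1 ranked 1738 and Lrp1 714 among the 12111 genes. The interaction of genotype and fasting was called for 0 of the 6 by limma. It was called for 0.033% of all genes as deposited and 0.116% after median scaling. At an unadjusted limma p under 0.05, where all genes were not counted, the interaction count was also 0 of the 6 on either scale.

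Some genes that act with LPL were called higher with fasting and others lower. Of 19 listed partners (activators, other inhibitors, proteases, heparan sulfate carriers and folding factors), 11 passed the filter, 7 lay below it and 1 was not analysed here. Apoc2, the apolipoprotein that activates LPL, was among those below the filter, at or under 0.037 TPM on average in every group. With fasting, 2 of 11 were called higher and 3 lower in MKO, and 1 higher and 2 lower in WT. Among all genes, 18.1% were called higher and 15.8% lower in MKO, and 15.3% and 20.7% in WT. The counts out of 11 were not tested against these shares. Sdc4, the gene of a heparan sulfate proteoglycan, averaged 32.4 ± 2.8 TPM in MKO fasted, 16.4 ± 3.1 in WT fasted, 15.3 ± 2.4 in MKO fed and 13.5 ± 1.8 in WT fed muscle (SD). It rose by 1.09 on the log2 scale in MKO (limma adjusted p = 3.5e-06), was not called in WT (0.28, adjusted p = 0.145), and was 0.99 ± 0.14 higher in MKO fasted than in WT fasted muscle (SE, adjusted p = 0.000184, and 0.67 after median scaling, adjusted p = 0.00167). The interaction, 0.82 ± 0.19, was not called (adjusted p = 0.189). In fasted muscle, 6 of the 11 partners were called higher in MKO than in WT as deposited, against the 38.9% of all genes given above. After median scaling 1 (Sdc4) was called higher, against 2.64% of all genes. With fasting, Furin, a protease that cleaves LPL, rose by 0.63 in MKO and 0.55 in WT. Pdia4, a disulfide isomerase of the endoplasmic reticulum, fell by 0.72 in MKO and by 0.78 in WT, and Hspg2 (perlecan, a heparan sulfate proteoglycan of basement membranes) fell by 0.50 and 0.52.

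Of 16 listed genes of the LDL receptor family and its partners, 11 were tested. With fasting, 0 of 11 were called higher and 3 lower in each genotype as deposited, and the other tested genes were not called. Among all genes, 15.8% were called lower in MKO and 20.7% in WT. Lrp4 and Sorl1, relatives of Vldlr, were among those called lower, whereas Vldlr rose. Lrp4, a receptor of the neuromuscular junction, fell by 0.85 in MKO (limma adjusted p = 1.46e-05) and by 0.74 in WT (adjusted p = 0.000173). Sorl1, a sorting receptor, fell by 0.43 in MKO (adjusted p = 0.0119) and by 0.71 in WT (adjusted p = 0.000654).

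**Figure D5:**
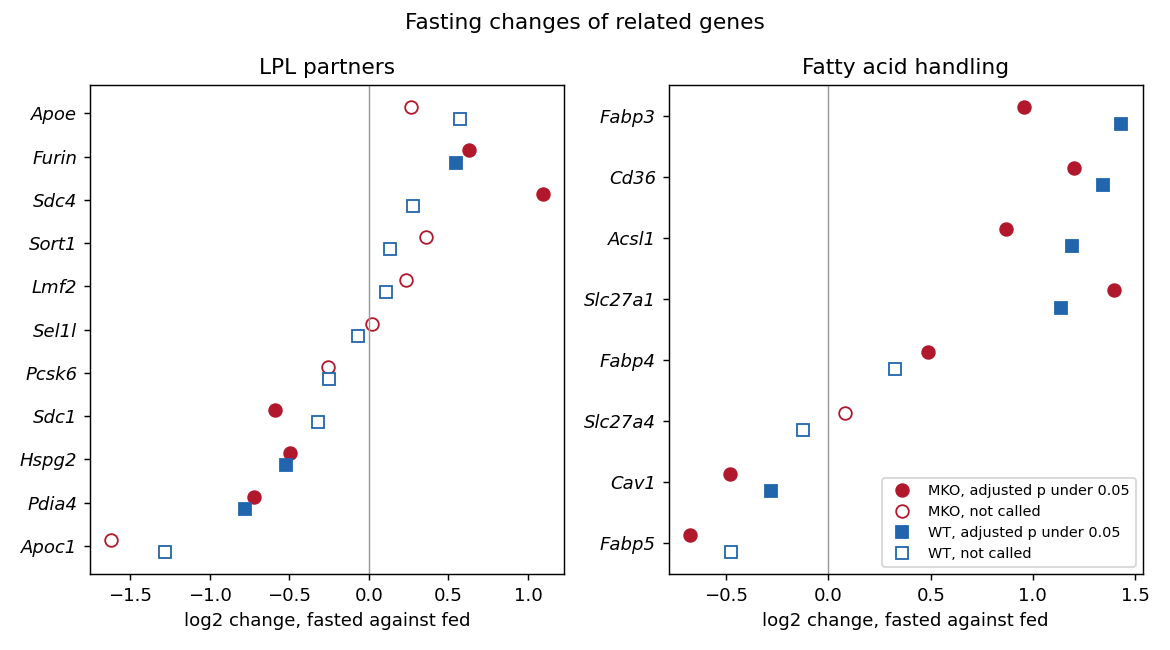
Log2 changes with fasting (horizontal axes) of the tested genes among LPL partners (left) and genes of fatty acid handling (right) in MKO (circles) and WT (squares), filled where the limma adjusted p was under 0.05. Pdia4 and Hspg2 lay below 0 and were called in both genotypes, while Cd36, Fabp3, Acsl1 and Slc27a1 were called above 0.

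The steps that follow LPL are the uptake and activation of the released fatty acids. Of 8 genes of fatty acid handling, 5 were called higher and 2 lower with fasting in MKO, and 4 higher and 1 lower in WT, with medians of 0.68 and 0.73 against 0.01 and −0.06 for all genes. Of all genes, 18.1% were higher and 15.8% lower in MKO, and 15.3% and 20.7% in WT. Cd36, the main fatty acid translocase of muscle, averaged 260.7 ± 21.4 TPM in MKO fasted, 251.9 ± 74.5 in WT fasted, 113.1 ± 7.1 in MKO fed and 97.4 ± 15.8 in WT fed muscle (SD). It rose by 1.20 in MKO (limma adjusted p = 1.92e-06) and 1.34 in WT (adjusted p = 2.02e-06). Slc27a1, a fatty acid transporter, rose by 1.40 and 1.14, and Acsl1, which makes acyl-CoA, by 0.87 and 1.19, whereas Cav1, the gene of caveolin-1, fell by 0.48 and 0.28.

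A list of 14 fasting genes under PPAR control was picked as genes known to rise with fasting, so its direction is no independent evidence. Of the 14, 12 were called higher with fasting in MKO (18.1% of all genes) and 13 in WT (15.3% of all genes), and 0 lower, with medians of 0.96 and 1.33 against 0.01 and −0.06 for all genes. Plin2, which coats lipid droplets, was called in neither genotype (−0.19 in MKO and 0.18 in WT). Pdk4, the kinase that switches off pyruvate dehydrogenase, averaged 1507 ± 272 TPM in MKO fasted, 1389 ± 219 in WT fasted, 72.1 ± 39.8 in MKO fed and 59.7 ± 14.8 in WT fed muscle (SD). Acot2 and Acot1, acyl-CoA thioesterases, rose by 4.47 and 4.805 in MKO and by 4.18 and 5.11 in WT. Ucp3, a mitochondrial carrier protein, rose by 2.47 in both. Of 11 transcription factors and coactivators of this system, 3 were higher and 3 lower with fasting in each genotype, where the shares of all genes were 18.1% and 15.8% in MKO and 15.3% and 20.7% in WT. Foxo1 and Foxo3, which are active in fasting, rose by 2.25 and 1.63 in MKO and by 1.92 and 1.67 in WT, while Rxrg, a partner of PPARs, fell by 0.86 and 1.27.

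Across the 18 libraries, the genes most like each of the 6 were found by Pearson correlation of median-scaled log2 values among tested genes that averaged 5 TPM or more. These values describe libraries that share groups and composition, and carry no test. Hsdl2 (r = 0.98), Hadhb (0.97) and Ephx2 (0.96) were most like Lpl. Hadhb encodes a subunit of the mitochondrial trifunctional protein of fatty acid oxidation. Ccng2, Pdk4 and Pim3 (each 0.97) were most like Angptl4, and Slc25a34 and Gzf1 (each 0.93) were most like Gpihbp1. Elk4 (0.97), Slc12a2 (0.97) and Hsf2 (0.96) were most like Vldlr. Tgfbi (0.92), Serping1 (0.91) and Tnxb (0.89) were most like Lrp1, the first and last of which encode proteins of the extracellular matrix. For Lmf1 the highest values were lower, at 0.78 for mt-Co3, 0.78 for Chchd2 and 0.77 for mt-Atp8, of which the mt genes belong to the mitochondrial genome. Lmf1 varied little in TPM, so its median-scaled values also carry the library median. That median was lowest (1.54) in WT fasted replicate 4, with the highest mitochondrial share (81.3%). It was highest (2.28) in MKO fasted replicate 2, with the lowest share (61.5%). Among the 6 genes themselves, Angptl4 and Gpihbp1 were most alike (r = 0.89). Lpl and Vldlr had r = 0.43 over all libraries and r = −0.85 over the deviations from group means (18 libraries in both). WT fasted replicate 4, with the highest Lpl and the lowest fasted Vldlr, is in both values, which were not computed without it.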

How the data were processed

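Muscle poly(A) RNA of 18 mice was sequenced. The authors mapped the reads to GRCm38 (mm10) with CLC Genomics Workbench and deposited gene-level TPM, which hold no read counts, so no counting error could be given. Columns with the fold changes (log2) and FDR-corrected p-values of the authors' comparisons were left aside. Values were tested as log2(TPM + 0.1) with limma (version 3.58.1, R 4.3.3), with 1 mean per group, all 18 libraries sharing one spread (14 residual and 5.38 prior degrees of freedom), after a filter of at least 0.5 TPM in at least 4 libraries. P-values were Benjamini-Hochberg adjusted over all genes tested. Single differences used exact permutation tests (Python 3.11.15). In 153 library pairs, the smallest median difference was 0.116 on the log2 scale, so all 18 were counted as separate libraries. Scripts were tested on simulated data.

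The 6 genes and the gene lists were chosen with earlier results of these data known. All 6 genes are named throughout; of each list, up to 4 members with the smallest adjusted p; and for each of the 6, the 3 most correlated annotated genes averaging 5 TPM or more. Some genes that this rule names are not reported here. Alternatives were median and quantile scaling, other pseudocounts (0.01 and 1) and filters (none and 2 TPM), fits of only the groups compared, a replicate block, and each library left out. Median scaling with WT fasted replicate 4 left out, the slow fiber covariate, and TPM rescaled over nuclear genes were added after the data were seen.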

Additional observations from a re-analysis of the deposited data

Results flagged for a closer look

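Vldlr in WT fasted replicate 4 lay far from the rest of its group, at 55.7 TPM against 105 to 114 TPM in the other 3 WT fasted libraries. The gap was 0.844 of the whole range of the group, above the critical value of 0.829 for 4 samples. It was the only such case in 28 groups of values checked, and chance alone gives about 1 in 20. In the same library Lpl was 307 TPM, against 98.5 to 213 TPM in the others, and Lrp1 was 4.28 TPM, against 6.08 to 7.43 TPM. The log2 level of the median gene was also lower there, at 1.54 against 1.93 to 2.04. Relative to the median gene, the log2 difference from the mean of the others was −0.55 for Vldlr, −0.23 for Lrp1 and 1.48 for Lpl.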

How the results depend on the processing

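As deposited, limma called 612 genes between MKO and WT fed, 4777 between MKO and WT fasted, 4099 with fasting in MKO, 4353 with fasting in WT and 4 in the interaction, and of the 6 genes 0, 1, 4, 4 and 0. The fasting calls of Angptl4, Gpihbp1 and Vldlr stood under every alternative run. Lpl in MKO was lost with quantile scaling (0.58, adjusted p = 0.0808) and without mitochondrial genes (0.64, adjusted p = 0.0973). Median scaling called 133 genes in fed muscle (35 higher and 98 lower, against 590 of 612 higher as deposited), 628 in fasted muscle (320 higher and 308 lower, against 4713 of 4777 higher as deposited) and 14 in the interaction. It turned the direction in fed muscle of Lpl (−0.075), Lmf1 (−0.21) and Vldlr (−0.21), in fasted muscle of Lpl (−0.29) and Lmf1 (−0.16), and with fasting in MKO of Lrp1 (−0.00021). Quantile scaling called 141, 600 and 8 genes and gave −0.23 for Lmf1 and −0.12 for Vldlr in fed muscle, −0.29 for Lpl and −0.13 for Lmf1 in fasted muscle, −0.045 for Lrp1 with fasting in MKO and 0.14 for Lmf1 in WT. TPM without mitochondrial genes called 141, 1204 and 10 genes and gave −0.10 for Lpl, −0.22 for Lmf1 and −0.23 for Vldlr in fed muscle, −0.42 for Lpl, −0.10 for Gpihbp1 and −0.26 for Lmf1 in fasted muscle, −0.025 for Lmf1 and −0.069 for Lrp1 with fasting in MKO, 0.021 for Lmf1 in WT and −0.046 for its interaction. Median scaling without WT fasted replicate 4 called 265, 691 and 38 genes, with −0.075 for Lpl, −0.21 for Lmf1 and −0.21 for Vldlr in fed muscle, −0.045 for Lmf1 in fasted muscle and 0.15 for the Lpl interaction. No filter gave 208 genes in fed muscle, 0 in the interaction and 0 of the 6 genes in fasted muscle. The filter of 2 TPM, which Lmf1 did not pass, gave 1 of the 5 genes left in fed muscle and 2 in fasted muscle. The pseudocount of 1 gave 1 of the 6 genes in fed muscle and 2 in fasted muscle, and the pseudocount of 0.01 gave 0 in fasted muscle. As deposited, 5.05% of all genes were called in fed and 39.4% in fasted muscle. Fits of only the groups compared called 4233, 2034 and 2851 genes in fed muscle, in fasted muscle and with fasting in WT, and of the 6 genes 2 in fed and 0 in fasted muscle. The slow fiber covariate called 12 genes in the interaction. It called 1 of the 6 genes in fed muscle, where 7.4% of all genes were called, and 0 in fasted muscle, where 42% were. Lpl had −0.062 in fasted muscle in this fit. The cause of these shifts was not tested.

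Leaving out each library in turn gave 46 to 4044 genes in fed muscle (46 without WT fed replicate 2, 4044 without WT fasted replicate 4), 2946 to 5907 in fasted muscle (2946 without WT fasted replicate 4) and 0 to 26 in the interaction, with 0 to 2 of the 6 genes in fed and 0 to 2 in fasted muscle. The log2 differences ranged from −0.26 to 0.29 for Lpl and −0.23 to 0.047 for Angptl4 in fasted muscle, −0.018 to 0.14 for Lrp1 with fasting in MKO, −0.054 to 0.021 for Lmf1 in WT, and in the interaction −0.45 to 0.09 for Lpl, −0.20 to 0.037 for Gpihbp1 and −0.32 to 0.049 for Lrp1. Gpihbp1 relative to the endothelial genes ranged from 0.18 to 0.29 between genotypes in fasted muscle and 0.66 to 0.80 with fasting in WT, and with the median of the endothelial genes the genotype difference was 0.11 (exact permutation p = 0.190).

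Same-numbered libraries did not deviate together: over 25 pairs the mean correlation was −0.0068 and 4 were over 0.1, and 3 of 18 libraries correlated best with their own number. A fit with the replicate block called 110 genes in fed muscle and 0 in the interaction. It gave 0.39 for Gpihbp1 (adjusted p = 0.0441) and 0.43 for Lrp1 (adjusted p = 0.0930) between MKO and WT fasted muscle, and changed no other call of the 6 genes.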
